A study of Mus musculus with 7 samples.

Results

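Cells that express Cd209a together with abundant MHC class II transcripts were followed in the mouse heart before and after myocardial infarction. A cell was taken as a member when it held at least 2 unique transcripts (UMIs) of Cd209a and at least 10 of H2-Aa, with Cd79a, a B cell receptor component, below 3 UMIs. Cells also needed at least 200 detected genes and at most 10% mitochondrial UMIs, and in the antibody-labelled pool a Ly6G antibody signal below 200 UMIs. The members were thus selected on their measured levels of Cd209a, H2-Aa and Cd79a, and those levels are given here as a description. The rule found 101 members among 9598 used cells of the 6 heart libraries, which held 10804 barcodes. The 7 matrices of the series hold 22630 barcodes, and the hashed mixture of blood and heart was not used.

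The animals were male C57BL6/J mice; an age is not given in the sources used here. Infarction was induced by permanent ligation of the left coronary artery. Infarct, border zone and adjacent viable myocardium were digested after removal of the right ventricle, and a matching piece of left ventricle was taken from hearts without infarct. Leukocytes still in the circulation were marked by an intravenous anti-CD45.2 antibody and sorted out. Viable CD45+ leukocytes, with a step that reduced neutrophils, gave 1 library each at steady state and at days 1, 3, 5 and 7, from 5 pooled mice per time point and 3 at day 7. A separate experiment labelled CD11b+ myeloid cells of days 1, 3 and 5 with 3 hashtag antibodies, stained them with 10 surface antibodies and ran them as 1 pool, from 5, 5 and 3 mice. CD11b is carried by type 2 conventional dendritic cells and by monocytes, macrophages and neutrophils, so dendritic cells without it were outside the pool.

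Dendritic cells take up antigen, load its peptides on MHC class II molecules and present them to CD4 T cells. Type 2 conventional dendritic cells (cDC2) depend on Flt3 signalling, and a monocyte-derived or inflammatory population shares many of their genes. Cd209a encodes a mouse relative of DC-SIGN, a C-type lectin of the dendritic cell surface. After maturation, dendritic cells raise Ccr7, the receptor that guides them to draining lymph nodes, and some secrete Ccl17 and Ccl22, ligands of Ccr4 on T cells.

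Cd209a lies on chromosome 8 (3743397 to 3748984, minus strand) and H2-Aa on chromosome 17 (34282744 to 34287823, minus strand) in GRCm38. Several MHC class II genes of the results share letters in front of their start sites. The stretches of 67 bases that follow are from the 6 list genes whose window holds TGATTGG, among them H2-Oa, H2-DMb2 and H2-Ob, the class II genes with the highest ratios of members to macrophages, and H2-Aa, which the rule used. Capitals mark the letters TGATTGG, which holds the inverted CCAAT box known as the Y-box, and ATGATG. Sequences are from the RefSeq promoter table of GRCm38.p6, 5′ to 3′ on each gene's strand, at 34092289 to 34092355 (H2-Oa), 34145112 to 34145178 (H2-DMb2), 34153083 to 34153149 (H2-DMb1), 34238801 to 34238867 (H2-Ob), 34287852 to 34287918 (H2-Aa, minus strand) and 34305761 to 34305827 (H2-Eb1).
H2-Oa: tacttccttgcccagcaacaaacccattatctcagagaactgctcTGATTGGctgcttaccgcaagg
H2-DMb2: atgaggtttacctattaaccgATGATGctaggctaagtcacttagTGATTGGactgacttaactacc
H2-DMb1: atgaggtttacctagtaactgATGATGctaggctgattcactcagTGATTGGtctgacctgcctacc
H2-Ob: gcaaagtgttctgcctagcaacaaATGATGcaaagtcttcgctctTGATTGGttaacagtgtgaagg
H2-Aa: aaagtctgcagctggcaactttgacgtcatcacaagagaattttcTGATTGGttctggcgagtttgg
H2-Eb1: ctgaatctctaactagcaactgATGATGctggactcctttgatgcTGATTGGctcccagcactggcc

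Of the 14 genes in the MHC class II list, 10 had a window in the table. TGATTGG stood in 6 of them, beginning between 45 and 92 bases before the start site, and ATGATG in 4. Neither was found for Ctss, Ifi30, Lgmn or H2-DMa, and H2-Oa and H2-Aa had no ATGATG. Both motifs were chosen after these sequences had been read. Across all 32851 promoter windows of 250 bases, TGATTGG was found on either strand in 7.23% and ATGATG in 9.39%. The shorter ATTGG, which lies within TGATTGG, was found in 33.8%.

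Members were rare at every time point. In the CD45+ libraries they numbered 16 of 645 used cells at steady state (2.48%), 6 of 527 at day 1 (1.14%), 5 of 848 at day 3 (0.590%), 12 of 948 at day 5 (1.27%) and 19 of 1795 at day 7 (1.06%). In the CD11b+ pool they numbered 6 of 495 at day 1 (1.21%), 18 of 2159 at day 3 (0.834%) and 15 of 1628 at day 5 (0.921%). The exact 95% binomial interval at steady state was 1.42% to 4.00%, and at day 3 of the CD45+ libraries 0.192% to 1.37%. Steady state was the highest of the 5 CD45+ shares and day 3 the lowest, and their intervals did not overlap. Of the 16 steady state members, however, 8 held at least 30 UMIs of the macrophage complement genes C1qa, C1qb and C1qc and 6 held only 2 or 3 Cd209a UMIs. Without possible doublets (at least 10 C1q or 3 CD3 UMIs) the steady state share was 0%, so the order of the shares turns on those cells. T cells of that library, at a lower depth, held a median of 10 C1q UMIs. The limit therefore does not tell doublets from cells with free RNA of other cells. Every other pair of CD45+ intervals overlapped, as did the 3 of the pool. The intervals and limits given here cover counting error and not the spread between mice, and the shares were not tested between time points. The sort changes the denominator, since neutrophils were reduced before the CD45+ sort.

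**Figure D1:**
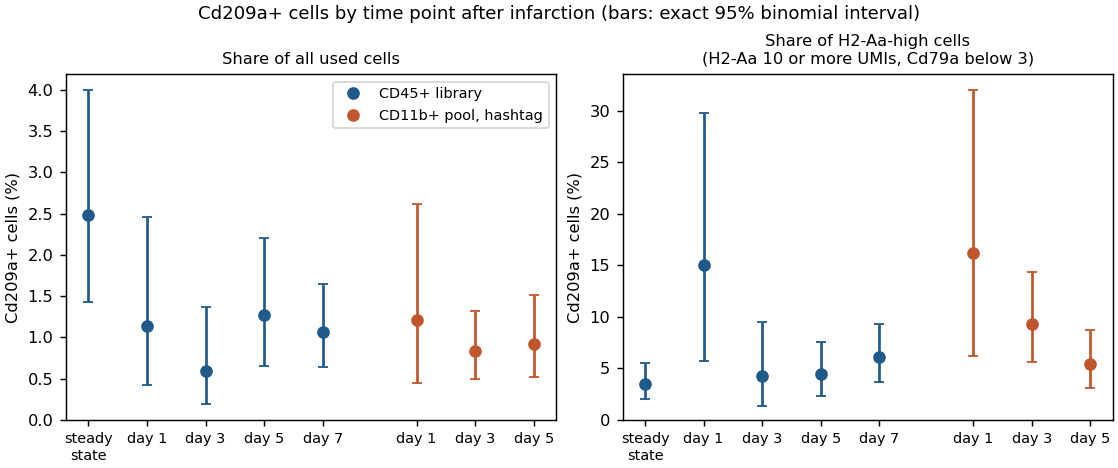
Share of Cd209a+ cells (y axis, percent) by time point (x axis) among all used cells on the left and among H2-Aa-high cells on the right, with exact 95% binomial intervals; blue points are CD45+ libraries and orange points hashtags of the CD11b+ pool. Among all used cells the CD45+ points lie between 0.590% and 2.48%; among H2-Aa-high cells the day 1 points, 15% and 16.2%, are the highest.

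Among cells that met the H2-Aa and Cd79a limits, the order was different. Members made up 3.44% of such H2-Aa-high cells at steady state, 15% at day 1, 4.20% at day 3, 4.41% at day 5 and 6.05% at day 7 in the CD45+ libraries. In the pool they made up 16.2% at day 1, 9.33% at day 3 and 5.38% at day 5. Day 1 was highest in both experiments, on 40 and 37 H2-Aa-high cells. The H2-Aa-high cells numbered 465 in the steady state library and 272 at day 5.

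A fixed threshold reads cell depth, and members were deeper than the average cell. Their median UMI count per cell was 13523.5, 9753, 12871, 8962 and 9744 from steady state to day 7 in the CD45+ libraries, against 7159, 5732, 9463.5, 7894.5 and 3595 for all used cells. In the pool it was 19692.5, 27163.5 and 24371, against 6679, 9819 and 24355.5. With each cell thinned to 3000 UMIs and shallower cells left out, the shares in the CD45+ libraries were 1.58% of 570 cells, 0.739% of 406, 0.396% of 757, 0.939% of 852 and 1.27% of 1104. In the pool they were 0.444% of 450, 0.153% of 1959 and 0.320% of 1561. At equal depth steady state remained above day 3, with intervals that overlapped.

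Cd209a itself spanned a wide range within every time point. The lowest, median and highest member held 2, 9.5 and 91 Cd209a UMIs at steady state, 2, 7.5 and 35 at day 5 and 2, 14 and 64 at day 7. The 6 members of CD45+ day 1 held 3, 5, 9, 10, 12 and 18, and the 5 of day 3 held 2, 3, 8, 24 and 28. In the pool the medians were 5, 5 and 9 and the highest values 21, 23 and 93. At the threshold, 13 members held exactly 2 Cd209a UMIs and 13 held 3, while cells that met every other limit with exactly 1 numbered 31 at steady state, 2, 5, 1 and 10 at days 1 to 7 and 0, 9 and 7 in the pool.

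Cd209a was scarce in cells gated as types that should lack it. The neutrophil and T cell gates took only cells below 10 H2-Aa UMIs, so no member could be among them. Used cells below that limit with at least 2 Cd209a UMIs numbered 2 at CD45+ day 5, 1 at day 7 and 0 in the other sets. The 2 gates therefore cannot show how specific Cd209a is. At least 2 Cd209a UMIs were found in 0 of 2314 cells gated as neutrophils, 0 of 128 gated as T cells and 2 of 959 gated as B cells. At least 1 UMI was found in 0.432%, 1.56% and 1.88% of them. Their median depth per library was 2032.5 to 6444 UMIs, below that of the members of the same library. Free RNA of other kinds was present: T cells of the steady state library held a median of 10 UMIs of the complement genes C1qa, C1qb and C1qc together, and 14 of the 19 day 7 members held a Cd79a UMI. S100a8, a neutrophil transcript, was found in 53 of the 97 members with a time point and in all 6 of CD45+ day 1. Its part in the results below was not tested. Over 15 pairs of libraries, 13 barcodes were shared, and 0 of them belonged to a member.

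The dendritic cell label was checked against markers. As a comparison class within each library, MHC II-high macrophages were taken as cells with 0 Cd209a UMIs, at least 10 H2-Aa UMIs and at least 10 C1q UMIs. They numbered 416, 4, 41, 167 and 223 from steady state to day 7 in the CD45+ libraries and 13, 104 and 192 in the pool. This contrast is set by the rule, so its values are a description with no test. In the 5 sets with at least 10 members, 14.8% of 2574 genes were higher in members in every set and 18.1% were lower. With the genes that chose either class left out (Cd209a, H2-Aa and the C1q genes), 7 of 9 genes of the cDC2 list above 50 counts normalised to CPM (UMIs of the gene per 1e+06 UMIs of the summed cells) were higher in every set, as were 4 of 5 genes of the conventional dendritic cell list. Of the macrophage list, 8 of 10 were lower in every set, and of the monocyte list 7 of 10.

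Napsa, an aspartic protease of antigen-presenting cells, reached 372, 1233, 1502, 998 and 1076 CPM in the members of the CD45+ libraries, against 27.5, 33.2, 215, 130 and 128 in macrophages. In the pool it reached 749, 814 and 809 CPM in members and 116, 132 and 91.2 in macrophages. Flt3, the receptor on which dendritic cell development depends, or Zbtb46, a transcription factor of conventional dendritic cells, was seen in 63 of 97 members. These were 32 of 58 members in the CD45+ libraries and 31 of 39 in the deeper pool. At steady state 5 of 16 members held either gene, and at CD45+ day 1 2 of 6. Zbtb46 alone was seen in 7 CD45+ members and 21 pool members. Flt3 alone stood at 48.3, 16.9, 99.0, 73.9 and 102 CPM in the CD45+ libraries. Dpp4, a peptidase found on conventional dendritic cells, was seen in all 18 members of pool day 3 and 12 of 15 at day 5. In the CD45+ libraries the summed members held 2, 10 and 8 Dpp4 UMIs at days 1, 3 and 5. Among defining markers of other dendritic cell types, Xcr1 or Clec9a of type 1 cells was seen in 3 members and Siglech of plasmacytoid cells in 6. The whole lists also hold genes shared with other cells, such as Bst2, seen in 85 members, Tcf4, in 56, and Irf8, in 46. The plasmacytoid list summed to 152 to 933 CPM in members and 266 to 594 in macrophages, and the type 1 list to 152 to 360 and 133 to 401. At CD45+ day 5 the plasmacytoid list stood at 933 CPM in members and 594 in macrophages.

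The label held less well for part of the members. At least 10 C1q UMIs, the limit that chose the macrophages, were held by 41 of 97 members. These were 32 of 58 members in the CD45+ libraries, 14 of the 19 at day 7 among them, and 9 of 39 in the pool. C1q transcripts, which macrophages make, summed to at least 30 UMIs in 19 of 97 members: 8 of 16 at steady state, 1 of 12 at day 5, 2 of 19 at day 7, 4 of 18 at pool day 3 and 4 of 15 at pool day 5. All 16 steady state members held at least 16 C1q UMIs, so a limit of 10 would remove every one. T cells of that library held a median of 10 C1q UMIs at a median depth of 4964.5 UMIs, against 30 and 13523.5 in members. At day 7 T cells held 4 at a depth of 3869 UMIs, against 11 and 9744 in members. How many members reach 10 C1q UMIs through free RNA was not tested. Of the 26 members with 2 or 3 Cd209a UMIs, 11 held at least 30 C1q UMIs, and of the 41 with at least 10 Cd209a UMIs 4 did. Whether the cells with both transcripts are doublets, macrophages with some Cd209a or a separate cell state was not tested. Neutrophil genes were also seen. At most 1 of the 6 genes Csf3r, Cxcr2, Retnlg, Mmp9, Hdc and Il1r2 was detected in 12 of 16 members at steady state. At days 1, 3, 5 and 7 it was so in 1 of 6, 2 of 5, 10 of 12 and 16 of 19. In the pool it was so in 2 of 6, 7 of 18 and 11 of 15. Il1r2 alone was seen in 76 of 97 members. Where these transcripts came from was not tested. For these reasons the cells are called Cd209a+ cells here.

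**Figure D2:**
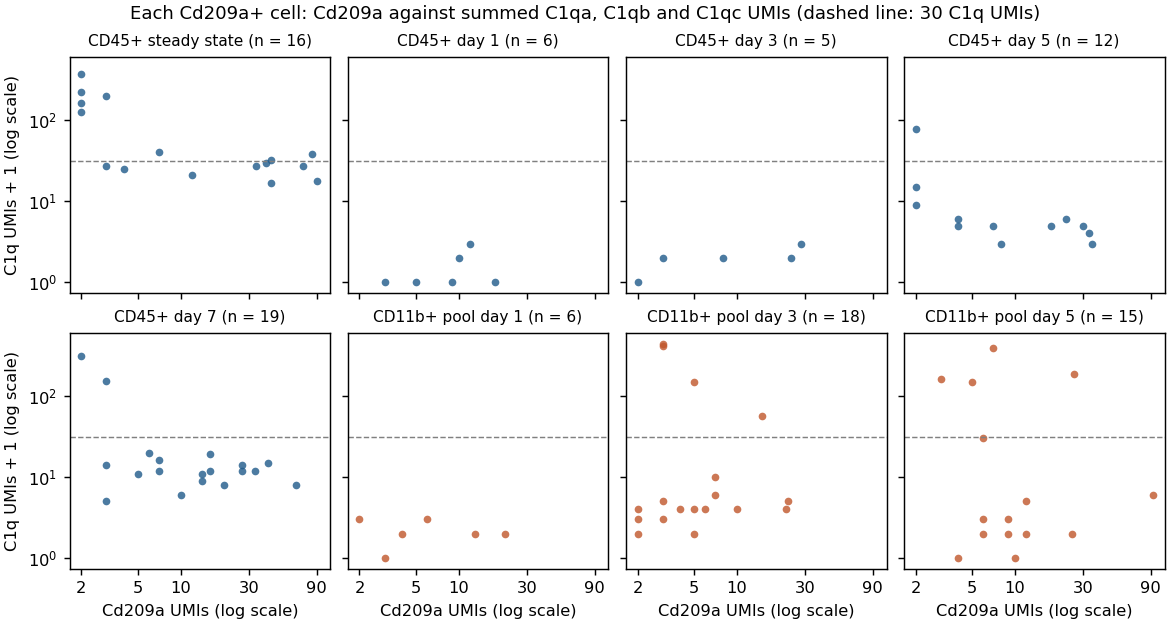
Each point is 1 Cd209a+ cell in 1 time point, with its Cd209a UMIs (x axis, log scale) against its C1qa, C1qb and C1qc UMIs plus 1 (y axis, log scale); the dashed line marks 30 C1q UMIs. Of the 19 cells at or above it, 8 are at steady state, and the 12 members at day 1 of both experiments hold at most 2 C1q UMIs.

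Ratios were taken after adding 0.5 UMIs to each sum, so a ratio to a sum of 0 depends on that addition. The genes with the highest mean ratio of members to macrophages in the 5 sets, apart from Cd209a itself, included natural killer type receptors and class II modulators. Cd7, an immunoglobulin family receptor of T and natural killer cells also seen in cDC2, had a mean log2 ratio of 6.45, and Klrd1 (CD94) one of 5.91. The Cd7 value includes 2 sets, both of the pool, in which macrophages held 0 UMIs; with the floor of 3 UMIs there it was at least 5.42, below that of Klrd1. Siglecg, a sialic acid-binding inhibitory receptor, had 5.65, H2-Oa 4.51, P2ry10 4.35, Ifitm1 4.16, the decoy receptor gene Il1r2 4.06, H2-DMb2 3.91 and Klrb1b 3.85. The lowest ratios were of Chil3 (-3.52), Tmem37 (-2.93), the transcription factor gene Maf (-2.77), lipoprotein lipase Lpl (-2.57) and Slc11a1 (-2.48). The chemokine genes Ccl7 (-2.42), Ccl2 (-2.41) and Ccl24 (-2.29) were also among the 10 lowest, with Pmp22 (-2.28) and Gas7 (-2.24).

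Klrd1 was uneven among members. It stood at 198 CPM at steady state, 50.7 at day 1, 1881 at day 3, 527 at day 5 and 560 at day 7, and at 478, 294 and 343 CPM in the pool. In macrophages it was at or below 18.7 CPM in all 8 sets. Of the 97 members 39 held at least 5 Klrd1 UMIs, and 1 cell gave 60.5% of the day 3 sum. Cd7 stood at 24.1 CPM at steady state, 16.9 at day 1, 528 at day 3, 240 at day 5 and 433 at day 7, and at 35.7, 36.5 and 161 CPM in the pool.

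Clec10a and Mgl2, C-type lectins that bind galactose-type sugars and mark cDC2, were at 0 in the 6 members of CD45+ day 1. Clec10a stood at 338 CPM at steady state, 512 at day 3, 240 at day 5 and 355 at day 7, and at 200, 312 and 313 in the pool. With 0 UMIs the day 1 sum allows up to 50.7 CPM. Mgl2 stood at 1120 CPM at steady state, 0 at day 1, 578 at day 3, 102 at day 5 and 117 at day 7, and at 7.13, 539 and 323 CPM in the pool. Both experiments were thus lowest at day 1. In macrophages Mgl2 stood at 781 CPM at steady state, 78.7 at day 3, 29.8 at day 5 and 52.3 at day 7, and at 6.82, 107 and 20 in the pool. The 0 UMIs in the 4 macrophages of CD45+ day 1 allow up to 99.7 CPM, so that day cannot be ordered among them. The cells that carried it were few: 10 of 18 members at pool day 3 and 4 of 15 at pool day 5 had an Mgl2 UMI.

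**Figure D3:**
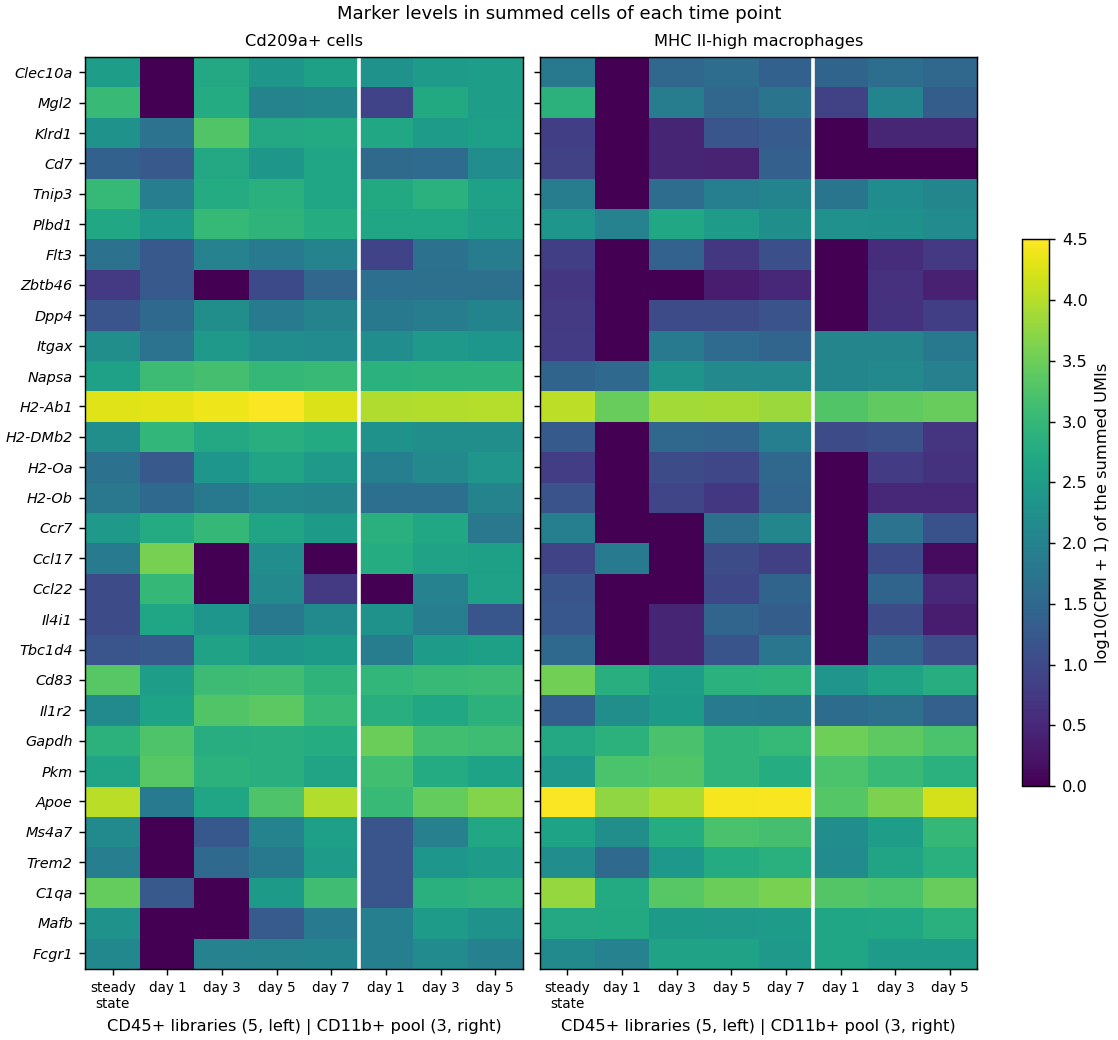
Levels of 30 genes (rows) in the summed UMIs of Cd209a+ cells (left) and MHC II-high macrophages (right) at each time point (columns), as log10 of CPM plus 1; the white line separates CD45+ libraries from the CD11b+ pool. The macrophage column of CD45+ day 1 rests on 4 cells. Clec10a and Mgl2 are at 0 in the members of CD45+ day 1, and Napsa and Klrd1 are brighter in members than in macrophages in every column.

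MHC class II presentation was high throughout, with H2-Aa used by the rule. H2-Ab1, the beta chain of I-A, stood at 19082 CPM at steady state, 20766 at day 1, 24076 at day 3, 29429 at day 5 and 17965 at day 7, and at 9220, 9559 and 9933 CPM in the pool. Levels are compared within an experiment only, because the CD45+ libraries used version 2 and the pool version 3 of the 10x 3' chemistry. Macrophages held 11338, 2857, 7504, 7913 and 6553 CPM of H2-Ab1, then 1913, 2499 and 2882 in the pool. Of the 11 list genes above 50 CPM other than H2-Aa, 8 were higher in members in every set and 2 were lower. Ctss, the cathepsin that trims the invariant chain, was one with lower values in members than in macrophages of the same set in all but pool day 1, at 1904 and 1715 CPM.

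The class II genes that differed most were the peptide-exchange regulators. H2-Oa and H2-Ob encode H2-O, which inhibits the peptide loader H2-DM, and H2-DMb2 encodes a beta chain of H2-DM. H2-Oa stood at 48.3, 16.9, 231, 425 and 263 CPM in the CD45+ members and 85.6, 129 and 222 CPM in the pool members. Macrophages held 5.44, 0, 9.60, 7.92 and 30.5 CPM, then 0, 5.10 and 3.6. H2-Ob stood at 62.8, 33.8, 66.0, 120 and 112 CPM, then 42.8, 42.3 and 101. H2-DMb2 was at 169, 963, 528, 656 and 565 CPM, then 200, 163 and 164. B cells also express H2-Oa and H2-Ob. The B cell list, which includes Cd79a of the rule, summed to 24.1, 0, 0, 18.5 and 234 CPM in members from steady state to day 7 and to 0, 11.5 and 0 in the pool, and its part in these values was not tested.

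Ccl17 and Ccl22 were concentrated in few cells, seen in 13 and 17 of 97 members, while Ccr7 was seen in 49 and Cd83, an activation marker, in 96. Ccl17 stood at 67.6 CPM at steady state, 3836 at day 1, 0 at day 3, 157 at day 5 and 0 at day 7, and at 606, 394 and 366 CPM in the pool. It was seen in 4 of 6 members at CD45+ day 1 and 3 of 6 at pool day 1. A single cell gave 100% of the sum at CD45+ day 5 and at pool day 5. Ccl22 stood at 997 CPM at CD45+ day 1 and 0 at pool day 1, so the experiments went different ways. Ccr7 stood at 256, 591, 974, 416 and 278 CPM, then 720, 487 and 63.0 in the pool, and 31 of 97 members held at least 5 UMIs of it. Fscn1, an actin-bundling gene of fully mature migratory dendritic cells, was seen in 5 members, 4 of them at steady state, and 1 of the 31 Ccr7-positive members held it. Il12b, a cytokine subunit that drives T helper 1 responses, came from 1 cell each at CD45+ day 5 and pool day 3.

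Il1b and Il1r2 were seen in most members, 96 and 76 of 97. Il1b, an inflammatory cytokine gene, held at least 5 UMIs in 94 of 97 members. It stood at 7177 CPM at steady state, 14987 at day 1, 6254 at day 3, 6052 at day 5 and 5019 at day 7, and at 7145, 3495 and 4823 in the pool. Il1r2, whose product binds and neutralises interleukin 1, stood at 135, 406, 1865, 2310 and 1110 CPM, then 685, 489 and 764, against at most 282 in macrophages. Neutrophils express Il1r2 too. The neutrophil list summed to 222 CPM in the members at steady state and 1310 to 2412 CPM later in the CD45+ libraries, and to 608 to 1129 in the pool, with Il1r2 among its genes. S100a8 in the same cells was at 24.1, 912, 264, 27.7 and 97.4 CPM, then 57.0, 32.7 and 95.8.

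Surface antibodies in the pool gave a readout that the rule did not use, except for Ly6G; both classes were chosen on H2-Aa transcripts. The antibody against I-A/I-E (MHC class II) had a median of 324.5 UMIs on members at day 1, 574.5 at day 3 and 573 at day 5, against 181, 316.5 and 288.5 on MHC II-high macrophages. Cd11c, an integrin of dendritic cells, had 61, 130 and 121 on members against 44, 64.5 and 50.5. CD64, the Fc receptor that marks macrophages, had 22, 21 and 21 on members against 36, 39 and 47. Cx3cr1 had 46.5, 42 and 45 against 57, 54.5 and 55, and Ly6C 79.5, 61 and 67 against 114, 76 and 79. Members were thus higher for I-A/I-E and Cd11c and lower for CD64, Cx3cr1 and Ly6C on all 3 days. Differences were smaller for MSR1 (21.5, 21 and 21 against 24, 26 and 23.5) and TIM4 (25.5, 30.5 and 27 against 28, 28 and 27). F4/80 had 56, 47 and 58 against 65, 61 and 58, and Ccr2 38, 42.5 and 48 against 44, 45 and 44. Ly6G, which the rule used in both classes, had 106, 101 and 106 against 108, 110.5 and 104.5. The quartiles of members and macrophages overlapped for I-A/I-E, Cd11c, Cx3cr1 and Ly6C on every day, and for CD64 on days 1 and 5. Over all used cells of the pool the medians were 20, 20 and 47 for CD64 and 47, 48 and 64 for Cx3cr1. Members were thus near the level of all cells for both on days 1 and 3. Cells of 1 pool are not replicates, so no test was made.

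**Figure D4:**
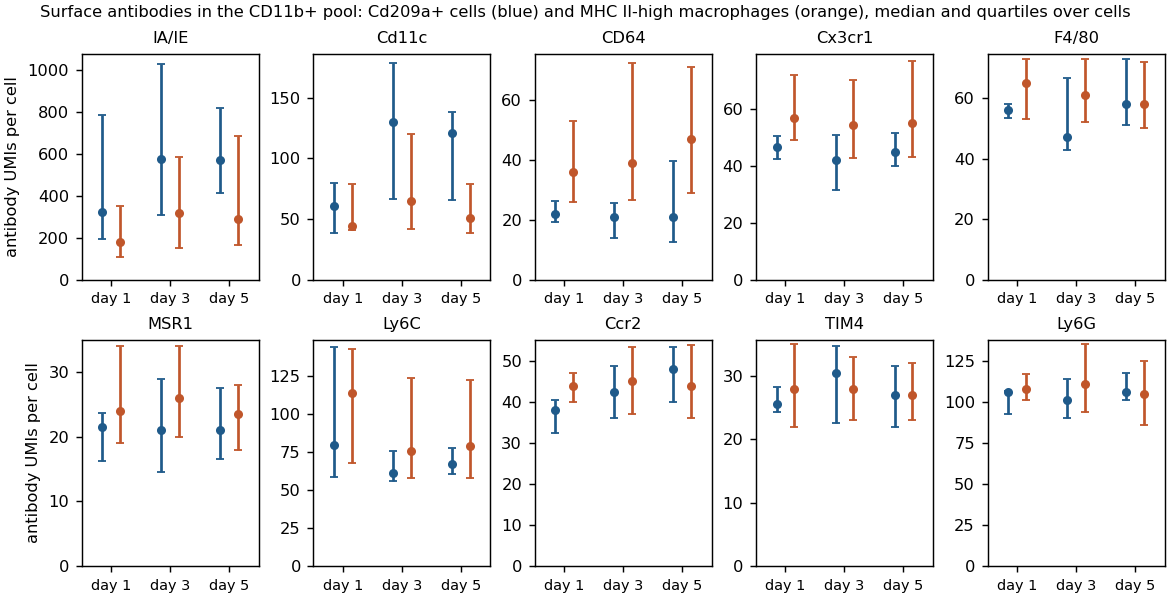
Median antibody UMIs per cell with quartiles (y axis, each panel from 0) at days 1, 3 and 5 (x axis) for 10 surface antibodies on Cd209a+ cells (blue; 6, 18 and 15 cells) and MHC II-high macrophages (orange; 13, 104 and 192 cells) of the CD11b+ pool. I-A/I-E and Cd11c medians are higher on Cd209a+ cells and CD64 medians lower on each day.

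Days 1, 3 and 5 were present in both experiments, so the summed UMIs of members could be tested there, with 1 sum per day and experiment. The sums held 59184, 60601 and 108228 UMIs in the CD45+ libraries and 140231, 519935 and 396653 in the pool. edgeR's quasi-likelihood test, with experiment as a term, had 2 residual degrees of freedom. Its p-values rest on how far the day changes disagreed between the experiments, which also differed in sort and chemistry. No day had a second sum within an experiment, so the spread between pools of mice was not measured. Of 2075 genes tested, 0 passed a Benjamini-Hochberg adjusted p of 0.05 in any of the 3 contrasts (percent called: 0). At an unadjusted p below 0.05 there were 194 genes for day 3 against day 1, 209 for day 5 against day 1 and 30 for day 5 against day 3. DESeq2 called 16, 22 and 0. A change of at least 2-fold with the same sign in both experiments was seen for 6.27% of genes, 6.41% and 0.675% respectively. On simulated sums with a log2 change of 3, the test recovered 92.8% to 94.2% of the changed genes it tested. With a log2 change of 2 it recovered 45.2% to 52.8%. Of all 200 changed genes, tested or not, it recovered 64.5% to 66.0% and 28.0% to 33.0%. The simulation gave every gene the same spread and no sums led by single cells. It therefore cannot show how many changes of these sizes were missed in the data.

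Glycolysis genes were highest at day 1 in both experiments. All 11 tested genes of that list had lower fitted values at day 3 and at day 5 than at day 1, and 0 of 11 passed the adjusted threshold. At an unadjusted p below 0.05 there were 8 on each day. At least 2-fold lower in both experiments were 5 at day 3, where 3.13% of all genes were, and 6 at day 5, where 2.84% were. The median log2 change was -1.32 and -1.41, against -0.00074 and 0.017 over all genes, and 0.009 for day 5 against day 3. Gapdh, the glyceraldehyde phosphate dehydrogenase gene, stood at 1791, 627 and 656 CPM on days 1, 3 and 5 in the CD45+ libraries and at 3123, 1362 and 1278 in the pool, a log2 change of -1.43 ± 0.25 (SE) at day 3 (edgeR adjusted p = 0.183). Pkm, pyruvate kinase, stood at 2180, 792 and 675 CPM, then 1376, 581 and 411, with -1.76 ± 0.28 (SE) at day 5 (edgeR adjusted p = 0.0677). Slc2a1, the glucose transporter gene, stood at 169, 16.5 and 55.4 CPM, then 143, 28.8 and 45.4.

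The day 1 sums of these genes leaned on few cells in the pool, where 1 of the 6 members gave 55.5% of the Gapdh UMIs and 64.9% of those of Pgk1, phosphoglycerate kinase; at CD45+ day 1 the highest member gave 28.3% of Gapdh. The list's summed level was 2941 CPM at steady state, 8245 at day 1, 3696 at day 3, 4121 at day 5 and 2843 at day 7, and 10048, 4231 and 3593 in the pool. Macrophages of the pool held 11449, 7258 and 5003 CPM on days 1, 3 and 5. Those of the CD45+ libraries held 4684 CPM at day 1, in 4 cells, 8511 at day 3 and 4508 at day 5, so day 1 was highest in the pool and day 3 in the CD45+ libraries.

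Macrophage genes were lowest at day 1. All 9 tested list genes were higher at day 3 and day 5 than at day 1 in the fit, with median log2 changes of 2.66 and 4.49, and 0 of 9 passed the adjusted threshold. At least 2-fold higher in both experiments were 4 at day 3 (3.13% of all genes) and 6 at day 5 (3.57% of all genes). Trem2, a lipid-sensing receptor gene, had 0, 2 and 7 UMIs on days 1, 3 and 5 in the CD45+ libraries and 2, 118 and 121 in the pool. Ms4a7, a macrophage membrane protein gene, had 0, 1 and 11, then 2, 47 and 186. The summed list stood at 19439 CPM at steady state, 389 at day 1, 1271 at day 3, 4112 at day 5 and 14148 at day 7, and at 1797, 6199 and 9033 in the pool. Apoe, the apolipoprotein E gene, gave much of it, with 10978, 67.6, 446, 1811 and 9513 CPM, then 1098, 2766 and 4717. Its macrophage level was 29622, 5614, 8388, 27061 and 28682 CPM, then 2025, 4066 and 16421. Cells gated as neutrophils, 6 of them at steady state, held a median of 8, 0, 1, 2 and 4 C1q UMIs, then 1, 1 and 2. Members held a median of 30, 0, 1, 4 and 11 C1q UMIs, then 1, 3 and 2. The part of free RNA in the course of the macrophage list was not tested.

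Without the 19 members holding at least 30 C1q UMIs, a limit chosen after the values were seen, the summed macrophage list stood at 7113, 389, 1271, 3288 and 5664 CPM, then 1797, 2370 and 2883. The order of the days was kept in both experiments, at lower levels. Free RNA was not subtracted from these sums. The cDC2 list without Cd209a then stood at 4808, 1267, 5693, 3185 and 3365 CPM, then 2232, 3456 and 2753, and glycolysis at 2253, 8245, 3696, 4205 and 2864, then 10048, 3792 and 3472. Mgl2 stood at 1095, 0, 578, 51.5 and 138 CPM, then 7.13, 642 and 134. Without those cells day 1 remained lowest for the macrophage list and the cDC2 list without Cd209a in both experiments, and for Mgl2 in the pool. In the CD45+ libraries the 0 Mgl2 UMIs at day 1 allow a level close to the 51.5 CPM of day 5. Mgl2 on those days therefore cannot be ordered.

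Single genes of the day contrasts were dominated by transcripts with few UMIs at day 1. Mgl2 had a fitted log2 change of 6.76 ± 0.87 (SE) at day 3 (edgeR adjusted p = 0.135), and the ratio of summed CPM was 108-fold with a counting interval of 19.3 to 4287, on 1 UMI at day 1. Dcstamp, a fusion-related receptor gene, Fcrls, an Fc receptor-like gene, and Clec4b1, a C-type lectin gene, had 0 UMIs in both day 1 sums. At day 3 they were at least 6.53-fold, 6.98-fold and 5.27-fold higher, and at day 5 at least 4.34-fold, 8.69-fold and 5.13-fold higher, against a floor of 3 UMIs over the day 1 sums. C1qa was 48.1-fold higher at day 5 than at day 1 (16.3 to 234), on 3 UMIs at day 1. None of these passed the edgeR threshold.

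Lower after day 1 were Ccl5, Il4i1, Chil3, Gsr, Ccl17 and Mt2. Il4i1, an amino acid oxidase gene of mature dendritic cells, had 26, 14 and 7 UMIs on days 1, 3 and 5 in the CD45+ libraries and 29, 43 and 6 in the deeper pool. Its log2 change at day 5 was -3.29 ± 0.45 (SE; edgeR adjusted p = 0.0677, DESeq2 adjusted p = 0.00135). Gsr, glutathione reductase, had 30, 2 and 4 UMIs, then 21, 20 and 27, with a log2 change of -2.83 ± 0.65 (SE) at day 3 (edgeR adjusted p = 0.207). Other values rest on single cells. A single member gave 90.2% of the 235 Ccl5 UMIs at CD45+ day 1, and another gave all 191 Chil3 UMIs at pool day 1. For Mt2, a metallothionein gene, 1 member gave 96.3% at pool day 1.

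**Figure D5:**
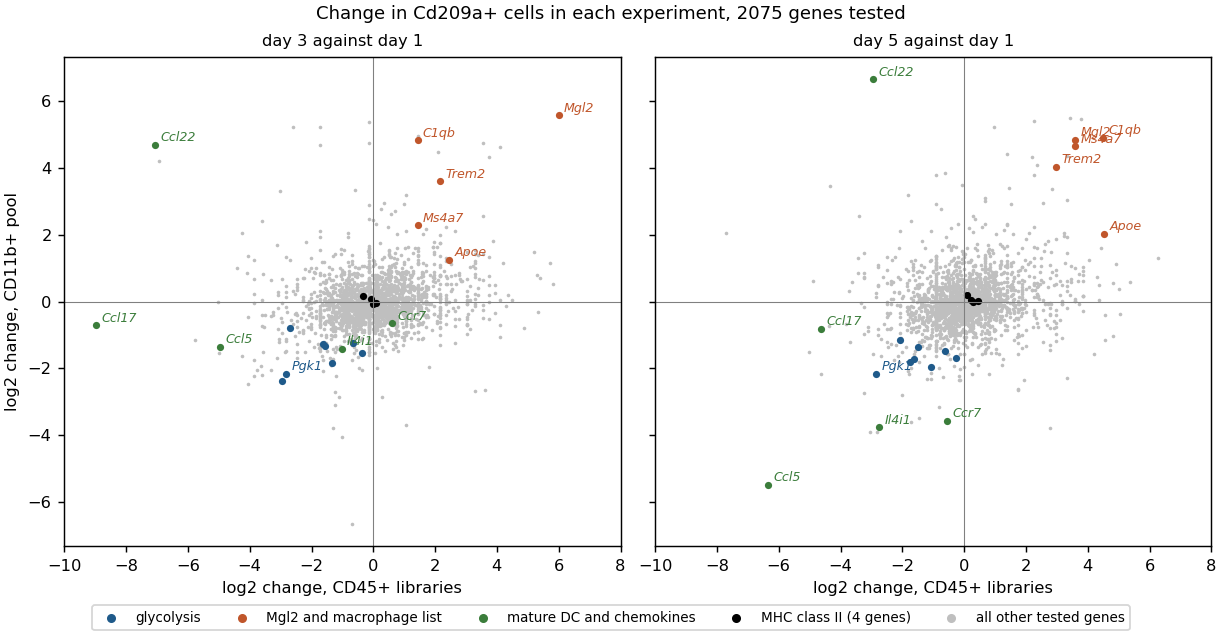
Log2 change of each of 2075 genes in the summed Cd209a+ cells in the CD45+ libraries (x axis) and in the CD11b+ pool (y axis), for day 3 (left) and day 5 (right) against day 1. Coloured points are Mgl2 and chosen genes of the glycolysis, macrophage, mature dendritic cell, chemokine and MHC class II lists, not all of them named in the text. Values of genes with 0 UMIs at one day depend on the added prior count. Gapdh, Pkm and Pgk1 lie below 0 on both axes at both days, H2-Ab1 near 0, and at day 3 Ccl22 has opposite signs in the 2 experiments.

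Most MHC class II genes differed little by day. The median log2 change of the 11 tested list genes other than H2-Aa was 0.043 at day 3 and 0.26 at day 5 against day 1, with 0 called and 0 and 2 at least 2-fold higher in both experiments. Those 2 were H2-Oa, with a log2 change of 2.20 ± 0.64 (SE) at day 5 (edgeR adjusted p = 0.301), and H2-Ob, with 1.38 ± 0.57 (SE; edgeR adjusted p = 0.469). The cDC2 list had medians of 1.18 and 0.64 over 10 genes other than Cd209a, and the conventional dendritic cell list 0.63 and -0.13 over 5. For the mature migratory list the medians over 8 genes were -0.32 and -0.35, with Tbc1d4, a Rab GTPase regulator gene, at least 2-fold higher in both experiments on both days (11 pool UMIs at day 1, 159 at day 3 and 143 at day 5). The 10 tested chemokines had medians of -0.81 and -0.15, and the 6 interferon response genes -0.015 and -0.95.

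Between day 5 and day 3 the sums were close, with 0 of 2075 genes called, 0.53% at least 2-fold higher in both experiments and 0.145% at least 2-fold lower. Ms4a7 had the highest fitted change among the named genes, 2.43 ± 0.44 (SE; edgeR adjusted p = 0.999). Ccr7 had -1.87 ± 0.64 (SE; edgeR adjusted p = 0.999), with 59 and 45 UMIs in the CD45+ libraries and 253 and 25 in the pool. Il4i1 had -2.07 ± 0.46 (SE; edgeR adjusted p = 0.999). The remaining genes that the naming rule selected were Cxcl1 (2.23), Procr (1.94), Ccl22 (1.91), Ccl5 (-2.78) and Cxcl3 (-2.13).

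Steady state and day 7 had 1 CD45+ library each, so their members are compared by counts only, with counting intervals. Of 923 genes with at least 30 UMIs in the sum with the higher level, 8.99% were at least 2-fold higher at day 7 and 9.64% at least 2-fold lower. Plac8, a gene of monocytes and plasmacytoid dendritic cells, had 218 UMIs at day 7 and 3 at steady state, a log2 ratio of 6.19 (4.63 to 8.48). Ly6a (Sca-1) had a log2 ratio of 4.92 (3.00 to 8.00), the interferon-inducible Ifitm1 4.79 (3.89 to 5.87), Tbc1d4 4.28 (2.67 to 6.60), Cd7 4.17 (2.89 to 5.82) and Rrad 3.40 (2.36 to 4.66). Folr2 and Cbr2, markers of resident macrophages, had log2 ratios of -4.97 (-8.04 to -3.05) and -4.05 (-6.37 to -2.42), and Rhob -3.65 (-5.99 to -2.00). Lyve1, another resident macrophage marker, had 12 UMIs at steady state and 0 in the other 7 sets. Retnla was at least 39.4-fold lower at day 7, with 82.4% of its 119 steady state UMIs from 1 member. Cxcl3 (96.9%) and Ccl12 (84.8%) also rested on 1 steady state member each.

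Handling-related transcripts were highest at steady state. The list of immediate early and heat shock genes summed to 14083 CPM in the steady state members and to 4815 to 7089 CPM in the other 7 sets, and to 23723 CPM in steady state macrophages. Without the members with at least 30 C1q UMIs the steady state value was 9439 CPM. Its part in the steady state profile was not tested.

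Day 7 and day 5 members of the CD45+ libraries differed less. Of 668 genes, 7.63% were at least 2-fold higher at day 7 and 5.39% at least 2-fold lower. Apoe had a log2 ratio of 2.39 (2.18 to 2.61), with 43.8% of the day 7 sum from 1 member, and Ccl7 2.36 (0.890 to 4.31) in 16 of 19 members. Id3 was at least 6.15-fold higher at day 7, with 35 UMIs against 0. Irf8, a transcription factor of dendritic cell development, had -2.71 (-3.96 to -1.60), with 61.3% of the day 5 sum from 1 member. Siglech was seen in 2 of 12 members at day 5, with 94.7% of its UMIs in 1 of them. Pxdc1 (-2.51), Anxa1 (-1.83), Vps37b (-1.77) and Plaur (-1.71) were the others of the 6 lowest, with Mmp12 (-2.66; 96.7% of the day 5 sum from 1 member). The high values of Hspa1a (83.6%), Tnf (71.2%) and Gdf15 (87.2%) at day 7 came mostly from 1 member each.

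The day effect in members was set against that in MHC II-high macrophages in 1 edgeR quasi-likelihood model with class-specific day and experiment terms. Macrophages numbered 4 at CD45+ day 1, too few to sum, so the macrophage day 1 level came from the 13 cells of the pool. Of 6444 genes, 7 differed for day 3 against day 1 (0.109%), 14 for day 5 against day 1 (0.217%) and 0 for day 5 against day 3. For the last contrast 213 genes had an unadjusted p below 0.05, and DESeq2 called 0. The C1q genes, 3 of the 7 and 3 of the 14, were used to choose the macrophages. With macrophages taken at 3 or more C1q UMIs, 0 genes were called in each contrast, with 229, 223 and 109 at an unadjusted p below 0.05. That setting also added a CD45+ day 1 sum of 6 macrophages. With higher and lower counted apart, the calls were 0.0776% and 0.031% of genes for day 3 and 0.186% and 0.031% for day 5.

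Proliferation was seen in few members. At least 5 UMIs of Mki67 or Top2a, genes of dividing cells, were held by 4 of 97 members, with 1 at steady state, 2 at pool day 3 and 1 at pool day 5.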

How the data were processed

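The authors deposited UMI counts per gene and barcode from 10x Genomics 3' libraries, made with Cell Ranger per the submitters' processing notes (version 3.0.2 for the pool, per the file headers), against mm10/GRCm38. Deposited antibody and hashtag UMI counts were read for the pool. Hashtags were called with a Gaussian mixture on log counts. 39 of the 43 pool members carried 1 hashtag and 4 carried more than 1, which left 97 members with a time point. No doublet caller was run. Members were summed per day and experiment, filtered with filterByExpr, scaled by TMM (factors 0.943 to 1.04) and tested with edgeR 4.0.16 (R 4.3.3; quasi-likelihood, two-sided, Benjamini-Hochberg, threshold 0.05). DESeq2 1.42.0 was an alternative. A minimum of 10 members per sum was planned; it left no testable contrast and was lowered to 5 once cell numbers were known. The model was tested on simulated data with known changes. CPM scale each gene to the summed cells' UMIs. Genes were named from 27 lists, from the 4 highest and 4 lowest fitted changes per contrast, from the 10 highest and 10 lowest ratios to macrophages, and from the 6 highest and 6 lowest single-library ratios. Members and lists were chosen with earlier results of these data known. Other settings were tried as listed in the closing section; the versions used were Python 3.11.15 and pandas 2.3.3.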

Additional observations from a re-analysis of the deposited data

Results flagged for a closer look

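The day effect of the genes that follow differed between Cd209a+ cells and MHC II-high macrophages by an interaction test in edgeR's quasi-likelihood model, 5 of them in both contrasts against day 1. For day 3 against day 1 the log2 difference, members minus macrophages, was 4.51 for C1qb, 5.00 for C1qa and 4.73 for C1qc, the complement genes used to choose the macrophages. It was 4.09 for Pf4, a platelet chemokine gene, 3.09 for Cd63, a tetraspanin gene, -5.59 for Chil3 and -10.2 for Ccl5. For day 5 against day 1 it was 4.89 for C1qb, 5.24 for C1qa and 4.86 for C1qc. Among the other genes it was 3.04 for Spp1 (osteopontin), 3.24 for Rrad, 2.71 for Ifitm1, 2.74 for Ccl6, 3.33 for Slc25a33, 2.33 for Nr4a3 and 3.65 for Plk3. It was 10.1 for Gclm and 9.85 for Prkcb, -13.2 for Ccl5 and -2.95 for Chil3. The SEs were 2.26 for Gclm, 2.39 for Prkcb and 1.82 for Ccl5. Members of pool day 5 held 0 Ccl5 UMIs, so that size depends on the added prior count. With macrophages at 3 or more C1q UMIs, Ccl5 was at -4.32, Gclm at 10.3 and Prkcb at 9.68. That setting also added a CD45+ day 1 sum of 6 macrophages, which the reported model lacked. The adjusted p-values (edgeR) lay between 1.64e-06 and 0.0461. DESeq2 called 1 gene in each of these contrasts. For day 5 it was Nr4a3 (DESeq2 adjusted p = 0.00293). For day 3 it was none of the 7 genes given here, whose DESeq2 adjusted p was 0.999. For Ccl5, 1 member gave 90.2% of the UMIs at CD45+ day 1, and for Chil3 1 member gave all at pool day 1. The macrophage day 1 level rests on 13 cells of the pool, while that of members rests on both experiments. Members held 235 Ccl5 UMIs at CD45+ day 1 and 7 at pool day 1. For Ccl5 the classes were therefore not compared over the same day 1 samples.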

How the results depend on the processing

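The member share left its counting interval in 6 recalculated values: 7.29% at steady state with at least 1 Cd209a UMI, 0% at steady state and 0.279% at day 7 without possible doublets (10 or more C1q UMIs or 3 or more CD3 UMIs), and 0.444%, 0.153% and 0.320% at pool days 1, 3 and 5 at 3000 UMIs per cell. The genes called for day 3 against day 1, day 5 against day 1 and day 5 against day 3 in members numbered 0 each as reported, 16, 22 and 0 with DESeq2, 63, 85 and 2 with no filter on low counts, 4, 0 and 0 with only the 2 days compared and 0, 5 and 0 with at least 3 Cd209a UMIs (at least 4 members per sum). They numbered 0 with size factors of DESeq2, with no experiment term, without possible doublets and with total counts only, the last chosen after seeing the data. Leaving out 1 sum at a time gave 7 to 161, 23 to 192 and 0 to 15. Without the CD45+ day 1, 3 or 5 sum the counts were 91, 21 and 46 for day 3 against day 1, 107, 71 and 29 for day 5 against day 1 and 14, 3 and 2 for day 5 against day 3. Without the pool day 1, 3 or 5 sum they were 161, 7 and 43, then 192, 23 and 29, then 15, 0 and 5. These fits keep 1 residual degree of freedom. The prior degrees of freedom, the weight edgeR gives to the spread shared by all genes, were 5.72 in the reported fit. They were 12.8 without the pool day 3 sum and infinite in the other fits with 1 sum left out and with no filter. Where they were infinite, no spread particular to a gene was kept. The cause was not tested.

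The genes whose day effect differed from macrophages numbered 7, 14 and 0 as reported, 1, 1 and 0 with DESeq2, 5, 6 and 0 with its size factors, 11, 15 and 8 with no filter and 0, 0 and 0 with macrophages at 3 or more C1q UMIs. In the last setting the CD45+ day 1 macrophages numbered 6 and were summed too. Leaving out the sums of 1 day and experiment in both classes gave 1 to 33, 3 to 30 and 1 to 15, with the highest counts without CD45+ day 1 and, for the first contrast, the lowest without pool day 3. Without the pool day 1 sums the contrasts against day 1 could not be fitted. Of the named genes, 2 changed sign in the day contrasts: Ccl22 for day 5 against day 3 took the values -0.93 and 9.74, and Cxcl3 -8.84 and 7.09, when the pool sum of day 5 or of day 3, respectively, was left out. Another 2 did in the comparison with macrophages, C1qa at day 3 (-6.03 with the pool day 3 sums left out, against at most 5.63 with others left out) and Ccl5 at day 3 with 0.28 at 3 or more C1q UMIs. All other values of named genes kept their direction, with 104 passing the threshold that had not and 103 no longer passing it. At least 10 or 20 members per sum, and thinning before the sums, left too few members for any contrast. No paired analysis was possible because the labels give no replicate numbers shared between time points; the experiment, was a term of the reported model, and without it 83, 86 and 4 genes had an unadjusted p below 0.05, against 194, 209 and 30. Depth limits the sums of 5 and 6 members most: at CD45+ day 1 a gene with 0 UMIs may reach 50.7 CPM.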

Other observations

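The 4 pool members that carried 2 hashtags, and so had no time point, held 63790, 12927, 33396 and 38694 UMIs, with 25, 3, 11 and 11 Cd209a UMIs and 127, 2, 89 and 270 C1q UMIs. They made up 9.30% of the pool members, and 6.43% of all used pool cells carried more than 1 hashtag. Their median UMI count was 36045, against 22771 for pool members with 1 hashtag.

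Il10, an anti-inflammatory cytokine gene, stood at 141 CPM in the day 7 members and at most 27.7 CPM in the other 7 sets, with 69.0% of the day 7 sum from 1 member. Irf4, a transcription factor of cDC2, was seen in 9 of 18 members at pool day 3 and 8 of 15 at pool day 5, and was at 0 UMIs in the members of CD45+ days 1, 3 and 5. Isg15, an interferon-induced gene, stood at 1132 CPM at CD45+ day 1 and 554 at day 5, against 198 to 299 at the other CD45+ time points, and 1 member gave 43.3% of the day 1 sum and 50% of that of day 5.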
